A study of Mus musculus with 16 samples.

Results

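The 39 genes that encode the numbered subunits of the proteasome (Psma, Psmb, Psmc and Psmd) were examined in quadriceps from 16 male mice. They were taken by symbol from a table of 23970 gene symbols and comprise 8 Psma, 11 Psmb, 6 Psmc and 14 Psmd genes. The 19 Psma and Psmb genes form the core and the 20 Psmc and Psmd genes form the regulatory set. The mice were wild type C57BL/6NTac males aged 16 weeks, fed for 10 weeks with either a control diet (CON), in which fat gave 10% of the calories, or a fat-rich diet (HFD), in which it gave 60%. In each diet, 4 mice were studied under basal conditions (CON-pre and HFD-pre) and 4 other mice 3 h after a single treadmill run to exhaustion (CON-post and HFD-post). Pre and post are therefore different animals, and all mice had been acclimatized to the treadmill and fasted. Muscle was taken as a whole, so fewer cells of a type and less RNA per cell cannot be told apart.

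The proteasome is the protease that degrades most ubiquitin-tagged proteins. Its barrel-shaped core is built of outer alpha rings (Psma) and inner beta rings (Psmb), and 3 beta subunits carry the peptidase sites: Psmb6 (caspase-like), Psmb7 (trypsin-like) and Psmb5 (chymotrypsin-like). Interferon induces Psmb9, Psmb10 and Psmb8, which take the places of Psmb6, Psmb7 and Psmb5 in the immunoproteasome and favour peptides for antigen presentation. The regulatory particle caps the core. Its base unfolds substrates with the ATPases Psmc1 to Psmc6, its lid holds the deubiquitinase Psmd14, and Psmd4 is a ubiquitin receptor. In skeletal muscle the ubiquitin-proteasome system degrades myofibrillar proteins and is the main route of protein loss in atrophy.

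The promoters of a pair of constitutive catalytic subunits and of the immunoproteasome subunits that replace them are shown because these pairs carry the contrast between abundant and scarce subunits. Each runs from 250 bases before to 50 bases after the annotated start, 5′ to 3′ on the strand of the gene, from RefSeq on GRCm38.p6. Psmb5 is at chr14:54617946-54618245 on the minus strand, Psmb6 at chr11:70525107-70525406 on the plus strand, Psmb8 at chr17:34197945-34198244 on the plus strand and Psmb9 at chr17:34187281-34187580 on the minus strand. Capitals mark a match on either strand to TGACNNNGC (the antioxidant response element bound by Nfe2l1 and Nfe2l2 with a small Maf protein), to GAAANNGAA (the core of the interferon-stimulated response element) or to CCAAT.
Psmb5: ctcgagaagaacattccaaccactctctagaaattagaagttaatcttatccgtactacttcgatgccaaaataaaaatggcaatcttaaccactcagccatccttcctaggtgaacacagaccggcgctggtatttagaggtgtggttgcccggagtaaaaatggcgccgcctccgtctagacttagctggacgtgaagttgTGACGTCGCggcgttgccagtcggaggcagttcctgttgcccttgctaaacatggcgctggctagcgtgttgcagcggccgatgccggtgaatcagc
Psmb6: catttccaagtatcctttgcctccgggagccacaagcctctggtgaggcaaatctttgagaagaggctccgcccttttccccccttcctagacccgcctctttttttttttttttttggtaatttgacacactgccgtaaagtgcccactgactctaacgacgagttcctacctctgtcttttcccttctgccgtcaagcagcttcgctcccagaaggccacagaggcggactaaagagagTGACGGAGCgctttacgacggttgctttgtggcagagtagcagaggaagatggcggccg
Psmb8: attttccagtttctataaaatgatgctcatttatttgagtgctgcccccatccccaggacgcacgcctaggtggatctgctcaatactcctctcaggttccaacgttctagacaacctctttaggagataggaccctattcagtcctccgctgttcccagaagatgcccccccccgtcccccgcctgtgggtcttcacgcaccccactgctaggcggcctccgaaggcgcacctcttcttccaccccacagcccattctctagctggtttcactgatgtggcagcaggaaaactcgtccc
Psmb9: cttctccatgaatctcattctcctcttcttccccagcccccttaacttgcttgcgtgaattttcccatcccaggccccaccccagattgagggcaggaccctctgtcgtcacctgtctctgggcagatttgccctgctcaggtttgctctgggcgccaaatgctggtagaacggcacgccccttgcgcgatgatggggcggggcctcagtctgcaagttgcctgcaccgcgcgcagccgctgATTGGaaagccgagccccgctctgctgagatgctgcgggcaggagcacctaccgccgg
The capitals in Psmb5 and Psmb6 are the response element of Nfe2l1 and Nfe2l2, the capitals in Psmb9 are CCAAT on the opposite strand, and the Psmb8 window held none of these letters. A promoter was listed for 32 of the 39 genes. TGACNNNGC was in those of 5 (Psmb5, Psmb6, Psmc6, Psmd9 and Psmd12), or 15.6%, against 14.0% of all 27025 genes listed. GAAANNGAA was in 5 (Psmb3, Psmb4, Psmc2, Psmd4 and Psmd9), or 15.6%, against 9.76%, and CCAAT in 13, or 40.6%, against 41.1%. The motifs do not contain one another, and a match of letters does not show that a factor binds.

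The deposited values are FPKM, that is fragments counted per kilobase of a transcript and scaled to the mapped total, so levels can be compared between genes. They summed to between 283575 and 329282 per library. Values of at most 0.5 FPKM, compared between libraries, gave depths from 0.706 (CON-pre replicate 2) to 1.12 (HFD-pre replicate 4) relative to CON-pre replicate 1, and HFD-pre replicate 2 was at 0.762. All 12 markers of skeletal muscle were abundant in every library, and Ckm, the muscle creatine kinase, lay between 10052 and 14319 FPKM. Nothing in the labels tied a replicate number to a shared litter or day. The 11256 genes whose mean over the libraries reached 0.5 FPKM were tested, which kept 37 of the 39 subunits, 17 core and 20 regulatory.

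The subunits left untested were both tissue-restricted core genes. Psmb11, the catalytic subunit of the thymus, was listed at 0 FPKM in all 16 libraries. Psma8, the alpha subunit of testis, was listed at 0 in 12 libraries and did not exceed 0.0795 FPKM in the others.

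Proteasome transcripts took between 0.514 and 0.599% of all FPKM. Most subunits were of one order of abundance: 27 of 37 averaged 20 FPKM or more, and 9 were under 10 FPKM. Psmb7 was the most abundant (mean 125 FPKM), followed by Psmd8, a lid subunit (109 FPKM), Psma6 of the alpha ring (91.2 FPKM) and Psmc3, an ATPase of the base (82.3 FPKM). The 6 ATPases, which occupy the base in equal number, had means from 36.5 FPKM (Psmc1) to 82.3 FPKM. The 8 lid subunits spanned 18.6 FPKM (Psmd11) to 109 FPKM. Psmd11 measured 21.2, 16.9, 17.9 and 15.9 FPKM in CON-pre, 16.9, 16.4, 18.2 and 18.1 in HFD-pre, 19.3, 19.8, 21.3 and 18.99 in CON-post and 16.98, 21.5, 19.7 and 17.96 in HFD-post. Every CON-post library was above every HFD-pre library, and the other groups overlapped. Psmd14, the lid's deubiquitinase, measured 34.5, 31.9, 31.3 and 28.0 FPKM in CON-pre, 32.7, 30.1, 29.7 and 29.1 in HFD-pre, 22.8, 33.6, 28.8 and 30.3 in CON-post and 31.3, 31.1, 28.9 and 31.2 in HFD-post. CON-post replicate 1 was its lowest library, and its groups overlapped too.

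The genes with the lowest means fell into groups by role. The immunoproteasome subunits Psmb9 (1.06 FPKM), Psmb8 (2.54) and Psmb10 (3.36) and the assembly chaperones Psmd10 (4.16), Psmd9 (5.19) and Psmd5 (5.97) were all under 6 FPKM. The chaperones help to build the base and leave before the particle is complete. The alpha subunits Psma5 (2.44 FPKM) and Psma3 (9.32 FPKM) and the beta subunit Psmb3 (7.71 FPKM) were also under 10 FPKM, whereas every other alpha, beta and catalytic subunit tested averaged 33.0 FPKM (Psmb5) or more. These 3 were singled out after their values were seen.

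**Figure D1:**
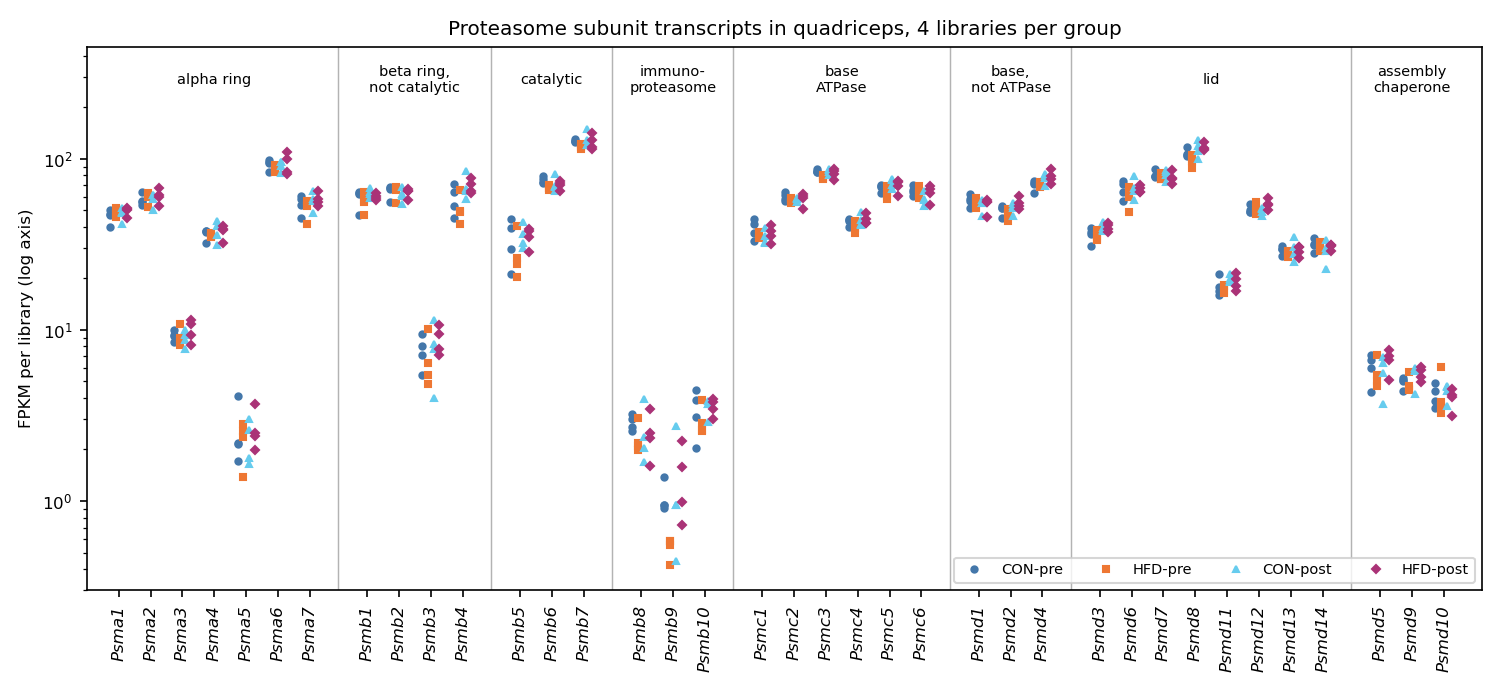
FPKM of the 37 tested proteasome subunits in each of the 16 libraries (log axis), grouped by role, with 4 points per group and subunit. Psmb9 is the lowest (0.421 to 2.73 FPKM) and Psmb7 the highest (114 to 149 FPKM), and the groups overlap for most subunits.

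Psma5 and Psmb3 are among 9 tested subunits with a near-identical copy elsewhere in the genome. A copy was counted where at least 50% of the transcript aligned in 1 block to another place in NCBIM37 with at least 90% identity. The study's methods name this assembly (mm9), but the FPKM table has no coordinates, and gene loci that the study lists elsewhere lie on GRCm38, so the alignment may have used that build, which was not searched for copies. Psmb3 had 7 such copies (highest identity 97.5%), Psma5 2 (98.6%), Psmb5 2 (99.0%), Psmd2 2 (96.4%), and Psma4, Psmb1, Psmb6, Psmc1 and Psmd11 had 1 each. Fragments of these genes could have been shared with the copies when the expression was estimated, so their FPKM are uncertain. The part of the copies in the low level of Psma5 and Psmb3 was not tested. Copies of less than 50% of a transcript were not counted, which limits the search most for long transcripts such as that of Psma3 (2846 bases, 0 copies counted).

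Replicates of 1 group differed little for most subunits. The SD within groups on the log2(FPKM + 0.5) scale had a median of 0.13 over the 37 subunits, against 0.18 over all tested genes. Among genes averaging 10 FPKM or more, it was 0.12 over 28 subunits and 0.13 over all 3230 genes. Psmc3 varied least (SD 0.05), and Psmb9 (0.46), Psmb3 (0.42), Psma5 (0.37), Psmb5 (0.35) and Psmb8 (0.32) varied most. Of those 5, Psmb3, Psma5 and Psmb5 have near-identical copies and Psmb8 and Psmb9 were under 4 FPKM in every library. The median SD was 0.16 over the 17 core subunits and 0.12 over the 20 regulatory subunits.

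Core and regulatory transcripts kept a nearly fixed proportion. The summed FPKM of the core genes was 733 ± 38.4 (SD, n = 4) in CON-pre, 690 ± 33.7 in HFD-pre, 747 ± 62.3 in CON-post and 750.4 ± 43.0 in HFD-post. That of the regulatory genes was 973 ± 30.5 in CON-pre, 921 ± 34.5 in HFD-pre, 978 ± 57.2 in CON-post and 991 ± 56.2 in HFD-post. Dividing core by regulatory sum gave a ratio between 0.725 and 0.799 in all 16 libraries, with means of 0.753 ± 0.0306, 0.749 ± 0.0196, 0.764 ± 0.0310 and 0.758 ± 0.0136 in the groups in the same order. The means of the 4 groups differed by less than the SD within CON-pre or CON-post, and no test was made of this ratio. Without the subunits that have near-identical copies the ratio was lower, between 0.580 and 0.632.

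Whole libraries differed more than this proportion did. In HFD-pre replicate 2, 1 of 37 subunits was above its own median over the 16 libraries, whereas 33 were in CON-post replicate 2 and 35 in HFD-post replicate 2. The remaining libraries had 9 to 26. The median of all tested genes, centred in the same way, was also low in HFD-pre replicate 2 (-0.07 on the log2 scale) and high in CON-post replicate 2 (0.08) and HFD-post replicate 2 (0.04). It was lowest in CON-post replicate 1 (-0.09), where 13 subunits were above their own median. After median-of-ratios scaling, which equalizes the typical gene between libraries, these 3 libraries had 14, 25 and 26 of 37 subunits above their own median, and the lowest number was 8, in HFD-pre replicate 4.

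**Figure D2:**
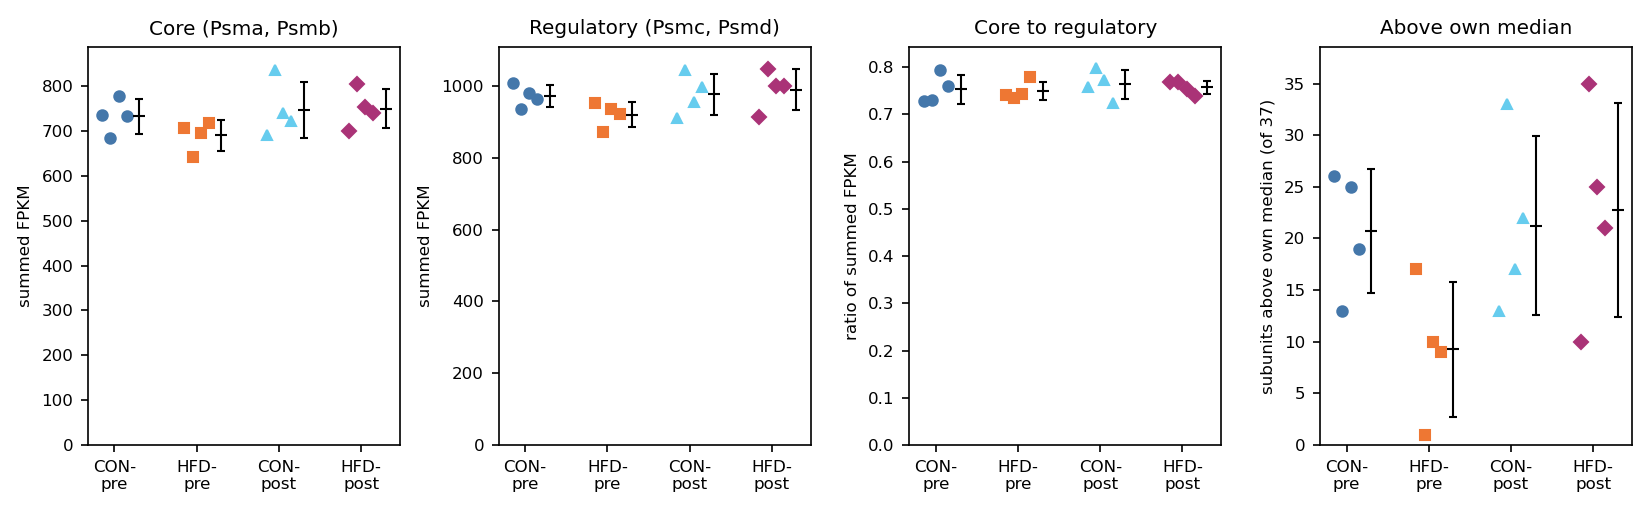
Summed FPKM of the core and of the regulatory genes, their ratio, and the number of the 37 tested subunits above their own median, for each library with the group mean and SD beside it. The ratio stays between 0.725 and 0.799, while the number of subunits above their median runs from 1 (HFD-pre replicate 2) to 35 (HFD-post replicate 2).

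The first comparison asked how high-fat feeding changed the subunits in muscle at rest. No subunit passed the test in HFD-pre against CON-pre (limma, Benjamini-Hochberg adjusted p under 0.05; lowest adjusted p = 0.551), while 0.346% of all tested genes did. At an unadjusted p under 0.05 there was 1 subunit, Psmc3, against 8.25% of all genes, and between 0 and 4 under the alternatives. The fold changes were nonetheless on 1 side: 33 of 37 subunits were lower in HFD-pre, against 60.3% of all genes. As a share of all FPKM the subunits were not lower, at 0.534 ± 0.00284% in CON-pre and 0.536 ± 0.0160% in HFD-pre (SD, n = 4). The FPKM total itself was 319223 ± 10293 in CON-pre and 300460 ± 3886 in HFD-pre. The median log2 fold change was -0.08 over all 37, -0.10 over the core and -0.06 over the regulatory subunits, against -0.03 over all genes. Leaving out HFD-pre replicate 2 gave -0.04, leaving out CON-pre replicate 1 gave -0.05, and under median-of-ratios scaling it was -0.05 with 26 subunits lower. Over the fits that left out 1 library the core median lay between -0.17 (without CON-pre replicate 2) and -0.07, and the regulatory median between -0.10 (without HFD-pre replicate 1) and -0.03 (without CON-pre replicate 1).

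Marker genes of several cell types are given beside these values, although 2 of them alone passed the test. The FPKM totals did not overlap, at 305490 to 327559 in CON-pre and 294867 to 303652 in HFD-pre. The summed FPKM of 12 skeletal muscle markers did not overlap either (67779 to 74106 in CON-pre and 59456 to 65332 in HFD-pre), with 8 of 12 lower and a median log2 fold change of -0.09. Of 6 blood markers, 5 were lower (median -0.48), although their sums overlapped (380 to 839 and 259 to 482 FPKM). Of 9 adipocyte markers 5 were higher (median 0.07) and Cfd and Lep were called. All 14 tested leukocyte markers were lower (median -0.22), all 5 endothelial markers were higher (median 0.17; sums of 44.7 to 54.3 and 50.9 to 59.0 FPKM) and 3 of 5 fibroblast markers were lower (median -0.05). The part of these differences in the subunits' values was not tested.

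Psmc3, one of the ATPases, measured 86.9, 83.2, 84.0 and 84.7 FPKM in CON-pre and 76.9, 76.1, 77.8 and 79.9 FPKM in HFD-pre. All HFD-pre libraries were below all CON-pre libraries, and the log2 fold change was -0.12 ± 0.05 (SE; adjusted p = 0.551). Psmb6 measured 79.0, 72.1, 76.2 and 73.4 FPKM in CON-pre and 67.6, 66.1, 70.2 and 67.4 FPKM in HFD-pre. Its groups did not overlap either (log2 fold change -0.15 ± 0.07, adjusted p = 0.607). Psmb7 measured 128, 127, 131 and 126 FPKM in CON-pre and 117, 114, 119 and 122 FPKM in HFD-pre, again without overlap (log2 fold change -0.11 ± 0.08, adjusted p = 0.761).

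The fourth subunit without overlap was Psmb9, at 0.954, 0.907, 0.950 and 1.39 FPKM in CON-pre and 0.587, 0.421, 0.580 and 0.554 FPKM in HFD-pre. Its log2 fold change was -0.57 with a 95% interval from -1.20 to 0.05 (adjusted p = 0.643). Over all tested genes, 5.62% had groups that did not overlap. For each of these 4 subunits the exact two-sided permutation test gave p = 0.0286, the smallest that 4 libraries against 4 allow. Groups without overlap always give this p, so it adds nothing to the lack of overlap. It is not adjusted for the number of genes. For 32 of 37 subunits the 95% interval of the difference lay within 0.5 of 0 on the log2 scale (74.2% of all genes), so larger changes at rest were outside the interval for those 32.

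HFD-post was compared with CON-post to ask whether the diets differed after exercise. The limma test called no subunit (lowest adjusted p = 0.834), against 0.151% of all genes, and no subunit had an unadjusted p under 0.05, against 6.29%. That count was 1 without CON-post replicate 2 and 2 without HFD-post replicate 1. Of the 37, 24 were higher in HFD-post (51.2% of all genes), with a median log2 fold change of 0.02 for the subunits and 0.004 for all genes. This median lay between -0.03 and 0.06 over 30 fits and so had no stable sign: it was -0.03 with 14 subunits higher without HFD-post replicate 2, -0.01 with 16 higher without CON-post replicate 1, and 0.06 with 31 higher when CON-post replicate 2 was left out. No subunit had groups that did not overlap (3.16% of all genes). Psmd12 of the lid had the lowest p: it measured 46.4, 51.3, 48.7 and 51.0 FPKM in CON-post and 49.97, 59.1, 53.7 and 54.4 FPKM in HFD-post (log2 fold change 0.13 ± 0.07, adjusted p = 0.834). Psmd5, an assembly chaperone, measured 3.67, 6.42, 5.59 and 6.97 FPKM in CON-post and 7.01, 7.66, 6.70 and 5.13 FPKM in HFD-post. Its groups overlapped, and its difference of 0.23 had an interval from -0.16 to 0.62 and was 0.05 without CON-post replicate 1. For 33 of 37 subunits the interval was within 0.5 of 0 (76% of all genes).

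Pooled over both exercise states, the diet comparison called no subunit (lowest adjusted p = 0.472; 0.959% of all genes were called). Psmc3 alone had an unadjusted p under 0.05 (10.4% of all genes), at a log2 fold change of -0.08 ± 0.04 in HFD against CON. Under the alternatives this count lay between 0 and 2, and it was 0 in 12 of the 16 fits that left out 1 library. There were 25 subunits lower and 12 higher under HFD (56.6% of all genes were lower), and the interval was within 0.5 of 0 for 36 of 37 (89.2% of all genes). The split was 31 lower and 6 higher without CON-post replicate 1, and 20 lower and 17 higher without CON-post replicate 2 or without HFD-post replicate 1.

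**Figure D3:**
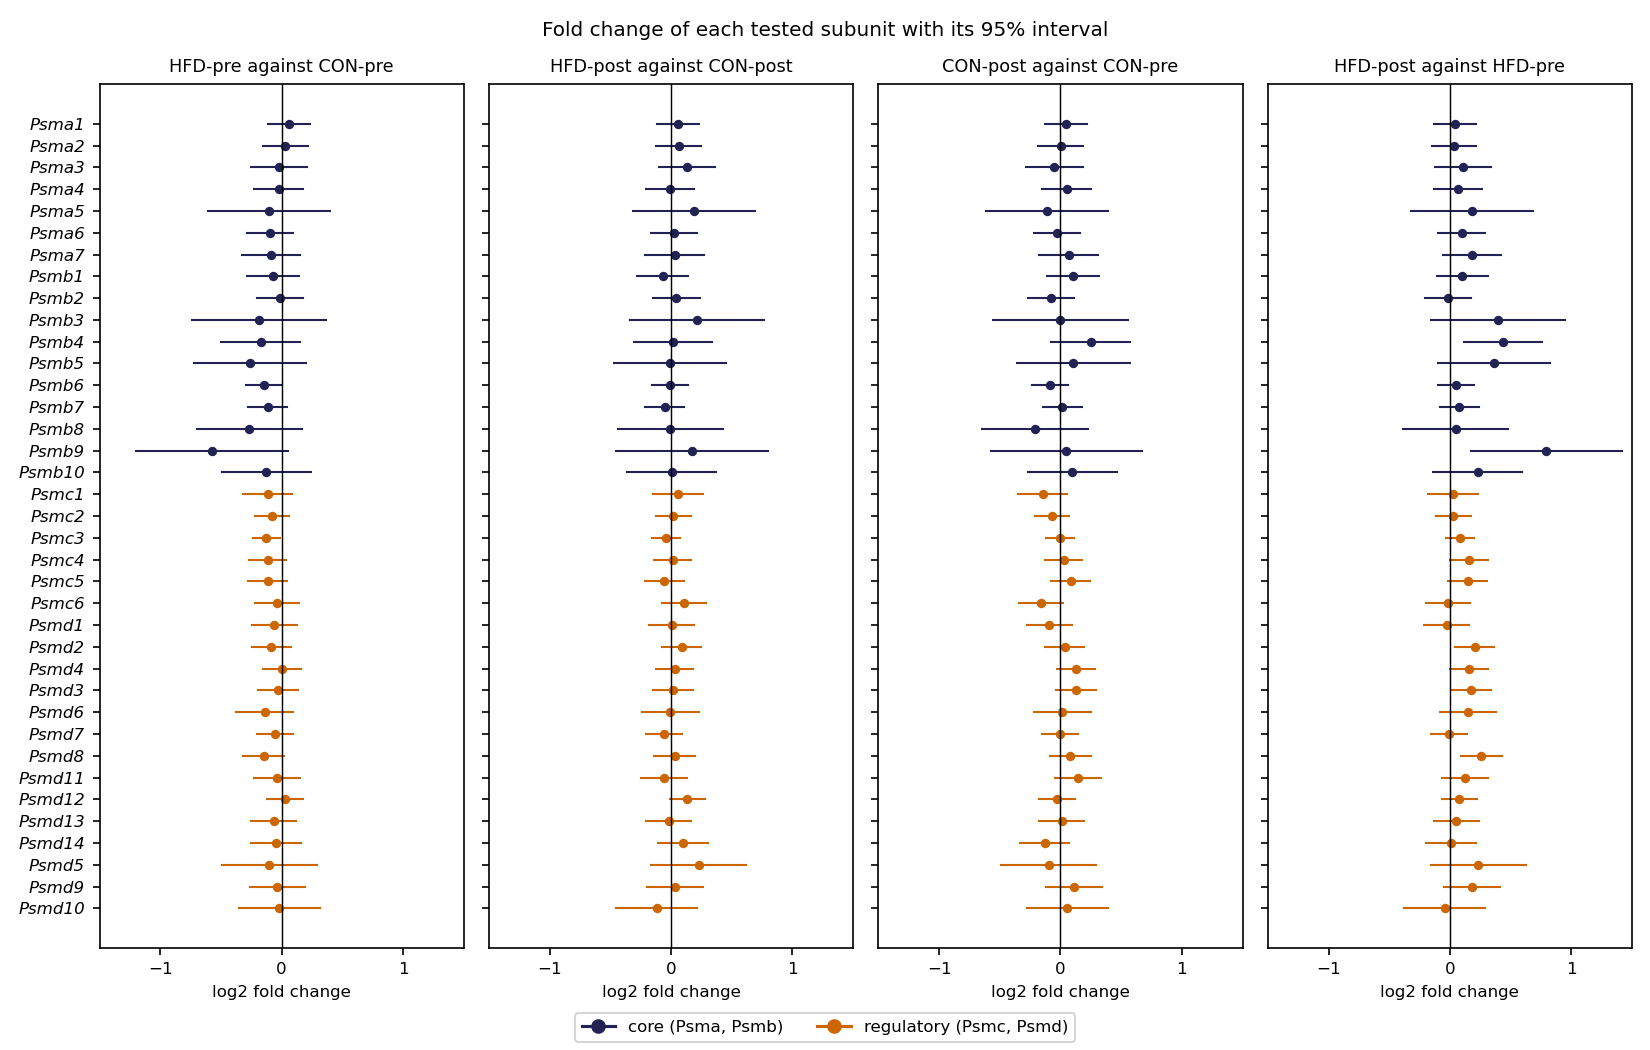
Log2 fold change of each of the 37 tested subunits with its 95% interval in the 4 pairwise comparisons, core in dark blue and regulatory in orange. In HFD-pre against CON-pre 33 points lie left of 0, in HFD-post against HFD-pre 32 lie right of 0, and most intervals include 0.

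The acute effect of running was measured within each diet. In CON-post against CON-pre the limma test called no subunit (lowest adjusted p = 0.513), whereas 1.11% of all genes were called, and no subunit had an unadjusted p under 0.05 (11.1% of all genes). That count was 0 in 10 of the 16 fits that left out 1 library and at most 3, without CON-pre replicate 4 or without CON-post replicate 2. The subunits were split, 22 higher and 15 lower (48.3% of all genes were higher), with a median log2 fold change of 0.02. This median lay between -0.03 and 0.05 over 30 fits and so had no stable sign. No subunit's groups failed to overlap (5.82% of all genes).

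The lowest p belonged to Psmc6, an ATPase, at 64.2, 70.7, 65.3 and 60.6 FPKM in CON-pre and 52.9, 57.1, 58.5 and 64.8 FPKM in CON-post. It was lower in 3 of the CON-post libraries than in any CON-pre library (log2 fold change -0.16 ± 0.09, adjusted p = 0.513). The same gene measured 69.5, 62.5, 63.3 and 58.8 FPKM in HFD-pre and 53.6, 67.0, 62.9 and 69.0 FPKM in HFD-post, where the groups overlapped. Psmd4, the ubiquitin receptor, measured 70.9, 63.0, 72.6 and 74.4 FPKM in CON-pre and 69.7, 81.5, 78.9 and 77.5 FPKM in CON-post. Of its CON-post libraries 3 were above every CON-pre library, and the log2 fold change was 0.13 ± 0.07 (adjusted p = 0.539). Psmd3, a lid subunit, measured 36.5, 30.9, 37.3 and 39.6 FPKM in CON-pre and 39.2, 42.7, 37.7 and 38.2 FPKM in CON-post (log2 fold change 0.13 ± 0.08, adjusted p = 0.572). Without CON-pre replicate 2, the lowest of its group for both genes, the fold change was 0.08 for Psmd4 and 0.06 for Psmd3. The interval was within 0.5 of 0 for 31 of 37 subunits (71.1% of all genes).

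In HFD-post against HFD-pre the limma test again called no subunit (lowest adjusted p = 0.193; 0.542% of all genes were called). More subunits than in the CON mice were on 1 side, 32 of 37 being higher in HFD-post (59.3% of all genes), with a median log2 fold change of 0.10 in both the core and the regulatory set and 0.04 over all genes. The HFD-pre libraries also enter the comparison of diets at rest and the interaction, so the counts of subunits on 1 side there are not separate results. The number of higher subunits was 24 under upper-quartile scaling, 28 under median-of-ratios scaling and 21 under quantile normalization, with medians of 0.04, 0.06 and 0.02. An unadjusted p under 0.05 was reached by 7 subunits, all higher (Psmb4, Psmb9, Psmc4, Psmd2, Psmd3, Psmd4 and Psmd8), while 8.5% of all genes did so and were higher and 11.7% did so in either direction. That number was 2 when HFD-post replicate 2 was left out, 3 when HFD-pre replicate 2 was, and 4 when either HFD-pre replicate 3 or replicate 4 of HFD-post was. The median log2 fold change was 0.07 without HFD-post replicate 2 and 0.16 without HFD-post replicate 1, the latter being 0.19 for the core and 0.14 for the regulatory set. The core median fell to 0.064 without HFD-post replicate 3 and the regulatory median to 0.059 without HFD-post replicate 2.

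Markers of some other tissues were also higher in HFD-post than in HFD-pre and those of others were not. All 9 adipocyte markers were higher (median log2 fold change 0.41), with sums of 337 to 429 FPKM in HFD-pre and 353 to 683 FPKM in HFD-post. Of the 6 blood markers 5 were higher (median 0.46), with sums of 259 to 482 and 316 to 903 FPKM. No marker of either list was at 0 in any library or called in this comparison. Over the 16 libraries, however, the blood marker Hbb-bs had a median of only 0.00852 FPKM and Hba-a2 fell to 0.0425 FPKM. Of the leukocyte markers 10 of 14 were higher (median 0.06), whereas 5 of 12 muscle markers (median -0.02), 2 of 5 endothelial markers (median -0.01) and 1 of 5 fibroblast markers (median -0.06) were. The endothelial marker Pecam1 was called (adjusted p = 0.0347). The part of these markers in the subunits' values was not tested.

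Psmd8, a lid subunit, measured 97.5, 87.9, 106 and 99.3 FPKM in HFD-pre and 114, 112, 126 and 115 FPKM in HFD-post. The groups did not overlap, and the log2 fold change was 0.26 ± 0.08 (adjusted p = 0.193). Psmd2, a scaffold of the base, measured 50.7, 43.0, 47.6 and 48.3 FPKM in HFD-pre and 53.0, 60.3, 50.9 and 54.8 FPKM in HFD-post. It did not overlap either, although the 2 nearest libraries, at 50.7 and 50.9 FPKM, were almost equal (log2 fold change 0.21 ± 0.08, adjusted p = 0.290). Its fold change lay between 0.13 and 0.24 over 28 alternatives (adjusted p from 0.204 to 0.594 by limma). Psmb9 completed the 3 subunits without overlap (6.81% of all genes), with 0.726, 2.23, 0.988 and 1.57 FPKM in HFD-post (log2 fold change 0.80 ± 0.29, adjusted p = 0.292).

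For Psmd8, Psmd2 and Psmb9, HFD-pre also enters the comparison of diets at rest, so both sets of values share these 4 libraries. Psmd8 measured 105, 103, 107 and 117 FPKM in CON-pre and 111, 130, 100 and 119 FPKM in CON-post. Psmd2 measured 52.8, 45.2, 51.4 and 51.9 FPKM in CON-pre and 46.6, 55.1, 52.9 and 51.5 FPKM in CON-post. In both genes the HFD-pre mean was the lowest of the 4 groups, at 97.6 ± 7.41 FPKM for Psmd8 and 47.4 ± 3.22 FPKM for Psmd2 (SD, n = 4).

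Psmb4, a beta subunit without a peptidase site, varied more than these. It measured 52.7, 45.0, 64.0 and 71.2 FPKM in CON-pre, 48.9, 41.6, 49.7 and 65.96 in HFD-pre, 66.7, 85.3, 64.9 and 58.5 in CON-post and 71.4, 77.6, 64.9 and 62.9 in HFD-post. The pre libraries ranged widely in both diets and overlapped with the post libraries. Its log2 fold change was 0.44 ± 0.15 in HFD-post against HFD-pre (adjusted p = 0.270) and 0.25 ± 0.15 in CON-post against CON-pre (adjusted p = 0.588), where it was 0.13 without CON-pre replicate 2 and 0.14 when CON-post replicate 2 was left out.

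Pooled over both diets, the subunit of lowest p in the exercise comparison was Psmb4, at a log2 fold change of 0.34 with a 95% interval from 0.11 to 0.57 (adjusted p = 0.0937 by limma, so not called; 3.86% of all genes were called). It was called when CON-pre replicate 4 (adjusted p = 0.0442) or HFD-pre replicate 4 (adjusted p = 0.0362) was left out, the highest pre library of each diet for this gene, and its adjusted p lay between 0.0362 and 0.300 over 27 alternatives. The next were Psmd8 (0.17 ± 0.06, adjusted p = 0.106), Psmd4 (0.14 ± 0.05, adjusted p = 0.144) and Psmd3 (0.15 ± 0.06, adjusted p = 0.145). Over 27 alternatives the fold change of Psmd4 lay between 0.05 and 0.17 (adjusted p from 0.0733 to 0.544 by limma). In all, 7 subunits had an unadjusted p under 0.05 (18.5% of all genes), all higher after exercise (11.7% of all genes), and 6 of these were regulatory (Psmc5, Psmd2, Psmd3, Psmd4, Psmd8 and Psmd11). The number was 4 when replicate 2 of any single group was left out, and 2 without both replicate 2 libraries of the pre groups, the shallowest.

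Over the 37 subunits, 28 were higher after exercise (53.7% of all genes) and the median log2 fold change was 0.05, with 0.05 for the core and 0.05 for the regulatory set. Without CON-post replicate 1 it was 0.08, and under upper-quartile scaling it was 0.001 with 19 subunits higher. The core median reached 0.09 without CON-post replicate 1, and the regulatory median was 0.10 without HFD-pre replicate 1 and 0.03 without CON-post replicate 4. All 9 adipocyte markers were also higher after exercise (median 0.27), as were 5 of 6 blood (0.09), 8 of 14 leukocyte (0.02), 6 of 12 muscle (-0.01), 3 of 5 endothelial (0.02) and 1 of 5 fibroblast markers (-0.04). Pecam1 of endothelium (adjusted p = 0.00141) and Des of muscle (adjusted p = 0.0322) were called, and the part of these markers was not tested. For 33 of 37 the interval was within 0.5 of 0 (85.6% of all genes).

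The interaction asked whether the response to exercise differed between diets. No subunit was called, all adjusted p being 1.00 after rounding, and no gene of the whole table was called (0%). No subunit had an unadjusted p under 0.05 (3.16% of all genes), but 3 did without CON-post replicate 2, 1 without HFD-post replicate 1 and 1 with array weights. The interaction was above 0 for 32 of 37 subunits (60.3% of all genes), with a median of 0.12, between 0.07 and 0.14 over 29 fits. Without CON-post replicate 1 it was above 0 for 26 subunits (50.7% of all genes). The lowest p was that of Psmb9 (0.75, interval from -0.14 to 1.63), followed by Psmd2 (0.17, from -0.06 to 0.40) and Psmd8 (0.18, from -0.06 to 0.41, and 0.11 without CON-post replicate 3). For 28 of 37 subunits the interval was within 0.5 of 0 (50.9% of all genes). The interaction is the difference of 2 responses in the same fit, so its intervals are wider by design for every gene. Among the markers, the interaction was above 0 for 9 of 9 adipocyte (median 0.41), 5 of 6 blood (0.69) and 10 of 14 leukocyte markers (0.08). It was above 0 for 9 of 12 muscle (0.05), 1 of 5 endothelial (-0.16) and 2 of 5 fibroblast markers (-0.05). The part of these markers was not tested.

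The catalytic subunits and their immunoproteasome counterparts differed most in abundance. Psmb8, Psmb9 and Psmb10 together made up between 2.42 and 3.91% of the summed FPKM of the 6 genes. Psmb5 measured 29.9, 21.1, 39.4 and 44.7 FPKM in CON-pre, 26.3, 20.3, 24.3 and 40.7 in HFD-pre, 32.3, 42.7, 36.2 and 30.03 in CON-post and 38.8, 38.0, 35.1 and 28.4 in HFD-post. Its values ranged 2.20-fold, against 1.27-fold for Psmb6 and 1.31-fold for Psmb7. In both pre groups the shallowest library (replicate 2) was lowest in Psmb5 and the deepest (replicate 4) highest, and the same was true of Psmb4. In HFD-post the deepest library was again the highest in Psmb5 (38.8 FPKM at a relative depth of 1.04), whereas in CON-post it was the lowest (30.03 FPKM at a relative depth of 1.06). The part of depth in these values was not tested. The log2 fold change of Psmb5 was 0.36 in HFD-post against HFD-pre, with an interval from -0.10 to 0.82 (adjusted p = 0.550), and it was 0.23 without HFD-pre replicate 2 and 0.56 without HFD-pre replicate 4.

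After exercise, Psmb6 measured 64.4, 81.7, 68.8 and 69.4 FPKM in CON-post and 64.7, 70.3, 74.3 and 71.9 FPKM in HFD-post. Psmb7 measured 121, 149, 128 and 121 FPKM in CON-post and 117, 128, 114 and 142 FPKM in HFD-post. Both post groups overlapped with their pre groups for both genes. The log2 fold change of Psmb6 was -0.09 (interval -0.23 to 0.06) in CON mice and 0.05 (-0.10 to 0.20) in HFD mice, and that of Psmb7 was 0.02 (-0.15 to 0.18) and 0.08 (-0.08 to 0.24). Leaving out 1 library gave ranges of -0.15 to -0.04 and 0.02 to 0.09 for Psmb6 and of -0.05 to 0.05 and 0.02 to 0.12 for Psmb7.

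Psmb8 measured 3.21, 2.55, 2.69 and 3.03 FPKM in CON-pre, 2.09, 1.99, 2.18 and 3.04 in HFD-pre, 2.03, 3.97, 2.37 and 1.69 in CON-post and 1.59, 3.44, 2.49 and 2.33 in HFD-post. Psmb9 in CON-post measured 0.948, 2.73, 0.947 and 0.449 FPKM. Psmb10 measured 3.88, 2.05, 4.43 and 3.11 FPKM in CON-pre, 2.55, 2.62, 2.86 and 3.91 in HFD-pre, 3.70, 3.84, 2.91 and 3.70 in CON-post and 3.81, 3.94, 3.46 and 3.01 in HFD-post. Replicate 2 was the highest library for all 3 genes within either post group, and none of the 3 was called in any contrast (lowest adjusted p = 0.292).

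Those 2 libraries were also the highest in leukocyte markers, whose summed FPKM over 16 genes was 319 in CON-post replicate 2 and 307 in HFD-post replicate 2. The sum was lowest in HFD-post replicate 1 (128), the library lowest in Psmb8 and Psmb9 within HFD-post, while CON-post replicate 1 (132) was not the lowest of its group for either gene. By group the sum ranged from 179 to 302 in CON-pre, 156 to 244 in HFD-pre, 132 to 319 in CON-post and 128 to 307 in HFD-post. Of the 14 tested markers none was called, and in HFD-pre against CON-pre all 14 were lower (median log2 fold change -0.22). Cd3e, which defines T cells, was listed at 0 in 14 libraries and the macrophage genes C1qa (9.28 to 34.1 FPKM) and Lyz2 (32.2 to 85.2 FPKM) were present throughout. The part of leukocytes in the immunoproteasome values was not tested. Psmb9 also overlaps Tap1 on the opposite strand, and the strand setting of the authors' estimate is not given in the sources used here.

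**Figure D4:**
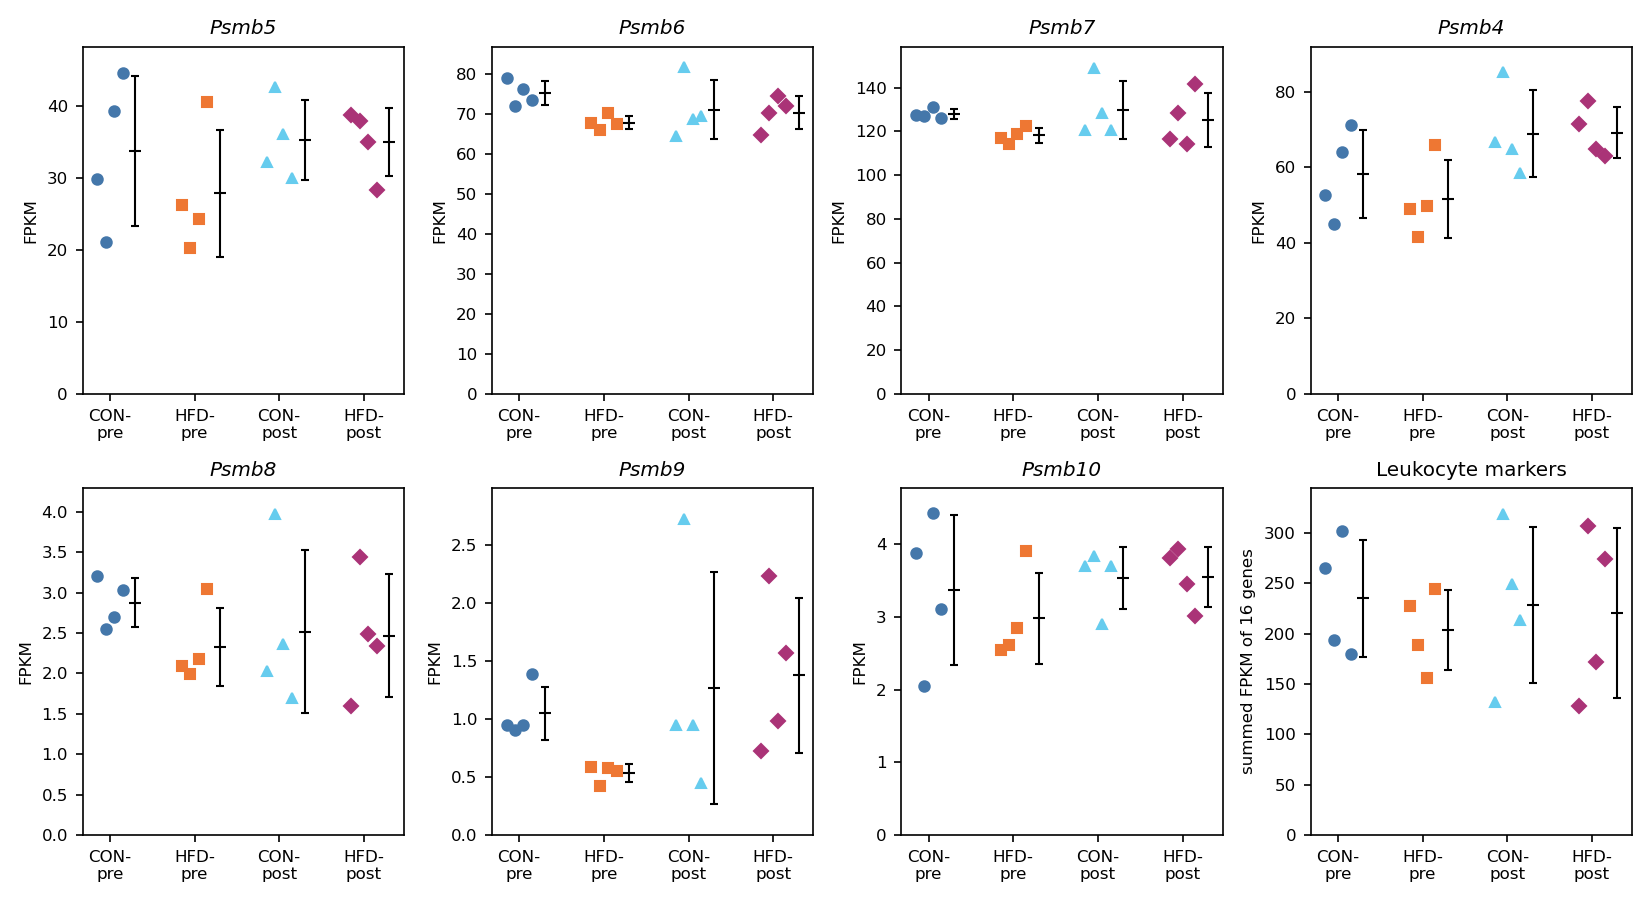
FPKM of the catalytic subunits Psmb5, Psmb6 and Psmb7, of Psmb4 and of the immunoproteasome subunits Psmb8, Psmb9 and Psmb10 in each library, and the summed FPKM of 16 leukocyte markers, with group mean and SD. Psmb9 is lowest in HFD-pre (0.421 to 0.587 FPKM), and CON-post replicate 2 and HFD-post replicate 2 are high in Psmb8, Psmb9 and the markers.

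The genes that build, activate, feed and regulate the proteasome were read from 7 lists of 60 genes, 58 of them tested and 3 (Psmd5, Psmd9 and Psmd10) also subunits. Unlike the subunits, a few of these genes passed the test after exercise. The limma test called 2 of 58 in CON-post against CON-pre (1.11% of all genes), 2 in HFD-post against HFD-pre (0.542%) and 4 in the pooled exercise comparison (3.86%), all higher. None was called in the other 4 contrasts, where an unadjusted p under 0.05 was reached by 5 in each diet comparison (6.29 to 10.4% of all genes) and by 2 in the interaction (3.16%).

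The largest changes among the called genes were in small Maf proteins, the partners with which Nfe2l1 and Nfe2l2 bind the antioxidant response element. Maff measured 0.484, 0.771, 1.15 and 0.491 FPKM in CON-pre and 2.89, 2.23, 3.47 and 2.62 FPKM in CON-post. In HFD-pre it measured 0.816, 0.318, 0.368 and 0.805 FPKM, and in HFD-post 1.72, 2.09, 2.14 and 1.34 FPKM. Every post library was above every pre library in both diets, and Maff rose by a log2 fold change of 1.45 ± 0.20 in CON (adjusted p = 0.000886) and 1.13 ± 0.20 in HFD (adjusted p = 0.0173). Mafk measured 4.98, 4.02, 5.16 and 5.40 FPKM in CON-pre, 5.47, 5.47, 5.25 and 5.73 in HFD-pre, 10.8, 9.58, 15.7 and 8.57 in CON-post and 9.37, 12.8, 10.9 and 9.11 in HFD-post. It rose without overlap by 1.08 ± 0.15 in CON (adjusted p = 0.000886) and 0.87 ± 0.15 in HFD (adjusted p = 0.0133). In HFD, Maff was called in 22 of 28 alternatives and not when replicate 2 or 3 of either group was left out (adjusted p from 0.0610 to 0.0808), in the fit of both groups alone (0.0502) or without the 2 shallowest libraries (0.0989). Mafk was called there in 25 of 28 and not without HFD-pre replicate 2, HFD-post replicate 2 or HFD-post replicate 3 (adjusted p from 0.0524 to 0.0678).

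Nfe2l2, the factor of the oxidative stress response, rose in the pooled comparison (0.31 ± 0.07, adjusted p = 0.0206), from 15.2 ± 2.11 FPKM in CON-pre and 14.5 ± 0.306 in HFD-pre to 18.6 ± 2.30 in CON-post and 18.3 ± 1.61 in HFD-post (SD, n = 4). It was called in 22 of 27 alternatives, not without CON-pre replicate 1 (adjusted p = 0.0541), not under the 3 other scalings (0.0607 to 0.0696) and not without the 2 shallowest libraries (0.0624), and in neither diet alone (adjusted p = 0.231 and 0.187). Zfand5, a proteasome-binding protein that stimulates degradation in atrophying muscle, also rose (0.40 ± 0.09, adjusted p = 0.0167). It measured 28.6, 27.4, 26.8 and 38.7 FPKM in CON-pre, 25.9, 25.9, 27.7 and 30.7 in HFD-pre, 47.8, 39.6, 38.9 and 36.2 in CON-post and 35.9, 37.2, 42.2 and 29.7 in HFD-post. CON-pre replicate 4 was above 1 CON-post library and HFD-post replicate 4 below 1 HFD-pre library, and the call held in 26 of 27 alternatives, the exception being without the 2 shallowest libraries (adjusted p = 0.0830).

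Nfe2l1, which drives proteasome genes when proteasome activity falls, was the most abundant of the regulators, at 129.5 ± 4.75 FPKM in CON-pre, 144 ± 4.96 in HFD-pre, 133 ± 10.1 in CON-post and 151 ± 8.63 in HFD-post (SD, n = 4). Its log2 fold change was 0.17 ± 0.05 in HFD against CON pooled over exercise states (adjusted p = 0.119) and so did not pass. Ddi2, the protease that activates it, had -0.32 ± 0.10 in the same comparison (adjusted p = 0.194).

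The other lists gave no call in any of the 7 contrasts, and over all tested genes the share with an unadjusted p under 0.05 ran from 3.16% in the interaction to 18.5% in the pooled exercise comparison. The activators of the core and its inhibitor (Psme1, Psme2, Psme3, Psme4 and Psmf1) had at most 1 gene with an unadjusted p under 0.05. Psme1 and Psme2 are the interferon-inducible activator, and Psme2 did not exceed 0.956 FPKM. The 8 assembly chaperones had at most 1 as well: Psmg4 measured 3.09 ± 0.701 FPKM in CON-pre, 1.92 ± 0.451 in HFD-pre, 2.78 ± 0.940 in CON-post and 3.19 ± 0.724 in HFD-post, with a log2 fold change of -0.57 ± 0.21 at rest (adjusted p = 0.422). That fold change lay between -0.67 and -0.33 over 28 alternatives (adjusted p from 0.224 to 0.885 by limma). Of the 10 shuttle and unfolding factors, such as Vcp, at most 3 had an unadjusted p under 0.05 in a contrast. Of the 11 tested genes of antigen presentation and interferon response, which include Tap1 and Irf1, none did in any contrast.

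The 6 genes of ubiquitin and its activating enzymes had 1 to 3 with an unadjusted p under 0.05 by limma in every contrast (3.16 to 18.5% of all genes). In HFD-pre against CON-pre there were 3 (8.25% of all genes), with 5 of 6 lower and a median log2 fold change of -0.18. In HFD-post against HFD-pre there were 3 (11.7%), with 5 of 6 higher (median 0.14). The pooled exercise comparison also had 3 (18.5%), with 5 of 6 higher (median 0.20). None was called.

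**Figure D5:**
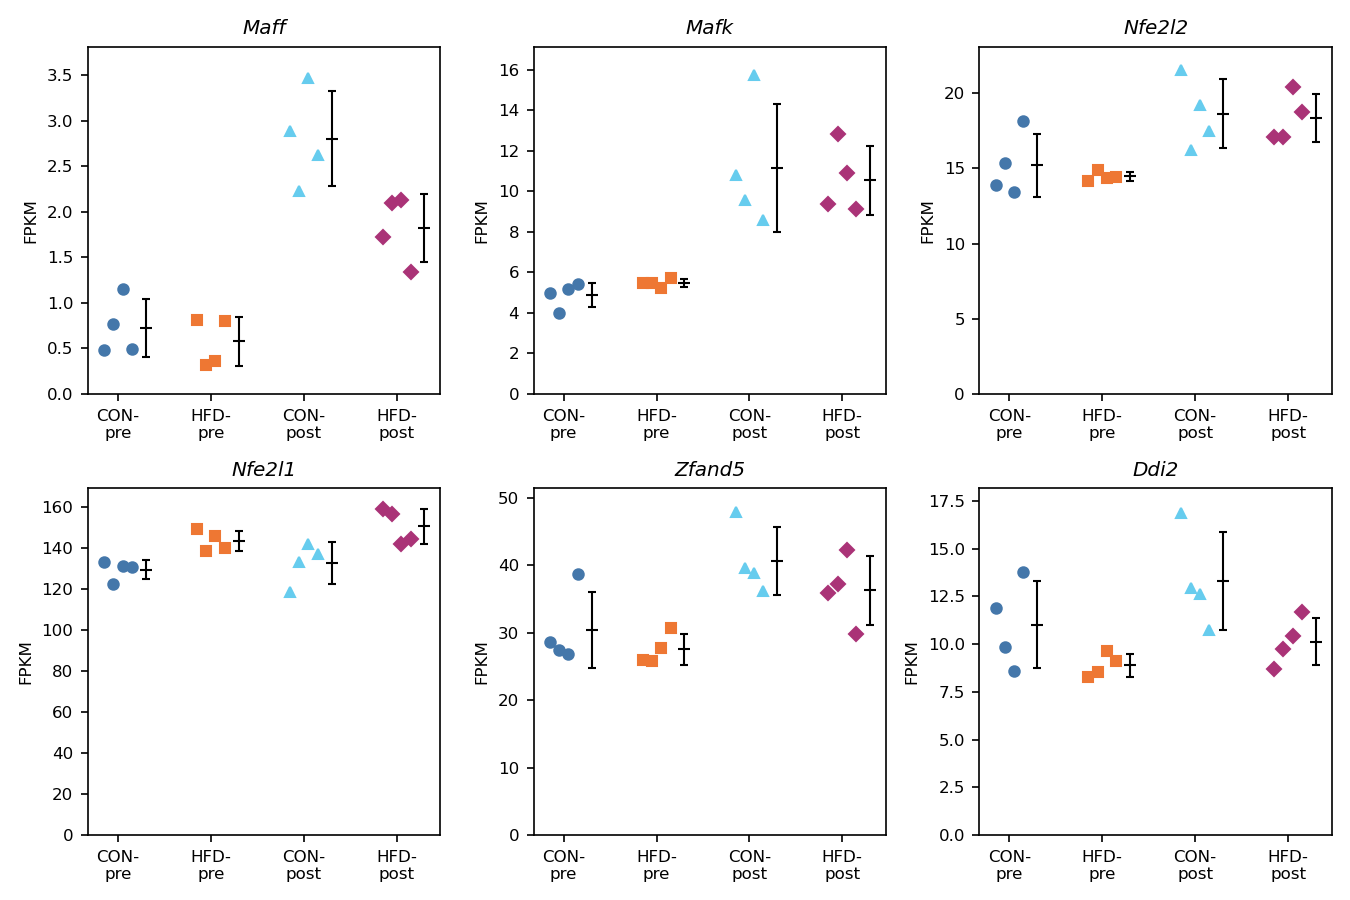
FPKM of Maff, Mafk, Nfe2l2, Nfe2l1, Zfand5 and Ddi2 in each library with group mean and SD. Maff and Mafk are higher in every post library than in every pre library (Mafk 8.57 to 15.7 against 4.02 to 5.73 FPKM), while Nfe2l1 has group means from 129.5 to 151 FPKM.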

How the data were processed

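Quadriceps RNA from 16 mice in 4 groups of 4 was analysed. The authors prepared stranded mRNA libraries, aligned trimmed reads with TopHat to mm9, as their processing notes name (listed gene loci lie on GRCm38 instead), and estimated expression with Cufflinks (versions not given in the sources used here). The authors deposited FPKM, values scaled by Cufflinks to the length of the transcript and the mapped fragments and not counts, so no count model was used. FPKM does not keep the absolute depth, and only a relative depth was obtained.

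Of 24487 entries, 27 whose names had become dates were left out (0.0771% of FPKM) and 260 repeated symbols were summed; none was a proteasome subunit, and 0 columns of sample values were left unused. The genes averaging 0.5 FPKM or more were tested with limma 3.58.1 (R 4.3.3) in 1 fit of the 4 groups to log2(FPKM + 0.5), allowing the variance to follow the mean. The pseudocount understates changes of low genes. P-values were Benjamini-Hochberg adjusted over 11256 genes, and a gene was called at an adjusted p under 0.05. Single genes were compared by exact two-sided permutation tests. The code was tested on simulated data.

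Subunits were taken by symbol, and the members and gene lists were chosen with earlier results of these data known. Values per library are given for the 3 subunits of lowest unadjusted p in each pairwise comparison and the interaction, for the catalytic and immunoproteasome subunits and for Psmd11, Psmd14, Psma8 and Psmb11; other names were chosen after their values were seen. Core and regulatory subunits were compared by counts, medians and ratios, without a test. Copies were searched with BLAST+ 2.17.0 in NCBIM37 with GENCODE M1. Promoters are from RefSeq, and protein sequences were not used here. Tables and figures used matplotlib 3.10.9, pandas 2.3.3, scipy 1.17.1 and numpy 2.4.6 in Python 3.11.15. The alternatives were other pseudocounts, filters, scalings, fits and thresholds and leaving out each library.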

Additional observations from a re-analysis of the deposited data

Results flagged for a closer look

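Of 68 groups of 4 libraries examined over the subunits with values per library, 3 held a library far from the other 3 by Dixon's criterion (critical value 0.829), and chance marks about 1 in 20. Psmb9 was 1.39 FPKM in CON-pre replicate 4, against 0.907 to 0.954 in the other CON-pre libraries. Psmb10 was 2.91 FPKM in CON-post replicate 3, against 3.70 to 3.84. Psmd14 was 28.9 FPKM in HFD-post replicate 3, against 31.1 to 31.3.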

How the results depend on the processing

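No subunit was called in 200 of the 207 combinations of contrast and alternative setting. The exceptions were the pooled exercise comparison, with 1 (Psmb4) at an adjusted p under 0.1 and a range of 0 to 1 over the fits that left out 1 library each, and an unadjusted p under 0.05, which gave 1 subunit in HFD-pre against CON-pre, 7 in HFD-post against HFD-pre, 7 in the pooled exercise and 1 in the pooled diet comparison. Of the fold changes given, 2 turned their direction. In CON-post against CON-pre Psmb7 was at -0.0127 after upper-quartile scaling and between -0.0532 and 0.0481 over the fits without 1 library each (lowest without CON-post replicate 2). In HFD-post against HFD-pre Psmb6 was at -0.0132 with upper-quartile scaling, and at -0.0281 once quantile-normalized. Without the 2 shallowest libraries (CON-pre replicate 2 and HFD-pre replicate 2), an alternative chosen after seeing the data, no subunit was called in any contrast. Same-numbered libraries of different groups deviated from their group means with correlations of -0.22 to 0.21, 6 of 16 libraries correlated best with their own number, and nothing pairs the mice. With the replicate block no subunit was called in any contrast (0 in each), and those with an unadjusted p under 0.05 in HFD-post against HFD-pre went from 7 to 4. FPKM without read counts gives no counting error, which limits Psmb8, Psmb9 and Psmb10 most.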

Other observations

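The ribosomal proteins, another large complex whose genes are mostly abundant, were set beside the proteasome as a description. In HFD-post against HFD-pre, 72 of 79 tested cytosolic ribosomal protein genes were higher, with a median log2 fold change of 0.28, against 0.10 for the proteasome subunits, and 46 of 76 mitochondrial ribosomal protein genes were higher with a median of 0.04. In HFD-pre against CON-pre, which shares the HFD-pre libraries, 67 of 79 cytosolic ribosomal protein genes were lower (median -0.13), beside 33 of 37 proteasome subunits. In CON-post against CON-pre, 59 of 79 were higher (median 0.12). The limma test called none of the 79 in these 3 comparisons, where 26, 6 and 2 had an unadjusted p under 0.05 (11.7, 8.25 and 11.1% of all genes). It called 2 in the pooled exercise comparison, both higher (3.86% of all genes), and 1 in the pooled diet comparison, lower under HFD (0.959%). Many of these genes have processed copies in the mouse genome, and their part in the values was not tested.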
